A study of Canis lupus familiaris with 13 samples.

Results

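Expression of 10 genes that mark fibroblasts, smooth muscle and myoepithelium was followed by RNA-seq across canine tumor biopsies: ACTA2, TAGLN, MYH11 and CNN1 of the contractile apparatus, PDGFRA, PDGFRB, FAP, POSTN and THY1 of fibroblasts and perivascular cells, and TP63 of basal and myoepithelial cells. The genes were chosen by symbol, and all 10 of the 10 symbols were among the 43427 symbols counted. All 10 also passed the filter on low counts, which kept 20118 genes. The study treated companion dogs with naturally occurring tumors by injecting IMAX into the tumor, a nanoparticulate complex that joins paclitaxel and a cyclic dinucleotide with polyethyleneimine linked to lithocholic acid, and it sequenced 13 biopsies of 4 tumors in 3 dogs. Of these, 4 were taken before treatment, 4 early and 5 late after it. Dog RV, with a soft tissue sarcoma, gave a pretreatment biopsy, an early one 2 days after the second dose and a late one 2 weeks after the third dose, when the injection site and a site adjacent to it each gave a library. Dog CL had a caudal and a cranial mammary tumor, diagnosed by the study as a complex and a ductal carcinoma, and each gave a pretreatment, an early (1 week) and a late (1 month) biopsy, timed from the second dose. Dog BM had a left caudal mammary carcinoma with a pretreatment, an early (1 week) and a late (3 weeks) biopsy, timed likewise, and its last specimen was diagnosed with features of carcinosarcoma.

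Each tumor was represented by 1 library per time point apart from the late RV biopsies, both CL tumors grew in the same host, no untreated control tumor was analysed here, and the early and late times differed between dogs. The p-values therefore measured the spread between these biopsies, and a comparison of the sarcoma with the mammary tumors was a comparison of 1 tumor with 3 tumors of 2 dogs.

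Smooth muscle cells, pericytes, myoepithelial cells and myofibroblasts share a contractile program of smooth muscle actin, myosin and their binding proteins, which is driven by serum response factor (SRF) with partners of the myocardin family. Fibroblasts are recognised by platelet-derived growth factor receptors and surface proteins, and when they are activated in a wound or a tumor they also make FAP and periostin. Myoepithelial cells form the outer layer of mammary ducts, where they carry both the contractile proteins and the basal epithelial factor p63, and canine mammary tumors of the complex type hold a myoepithelial component.

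The libraries held 11622444 to 29931125 counts, and levels are given as counts per 1000000 counts of the library (CPM) after TMM scaling. The lowest count of any of the 10 genes was 9, for CNN1 at the adjacent late RV site, so all were detected in all 13 libraries. The early RV library stood apart from the other RV libraries. Its summed level of 14 epidermal genes was 2425 CPM against 28.6 to 57.8 CPM in the other 3 RV libraries and 36.6 to 200.5 CPM in the 9 mammary libraries. Its 12 leukocyte genes summed to 5265 CPM, against 237.8 to 332.9 CPM in the other RV libraries and 241.4 to 2031 CPM in the mammary libraries. In the early RV library, 2 of the 12, S100A8 and S100A12, gave 1731 and 1760 CPM of this sum. Keratin 1 (KRT1), a protein of the upper epidermis, was at 426.8 CPM there and at no more than 1.76 CPM in the other RV libraries. Epidermal genes at 0 counts numbered 8 of 14 in the late BM library and 4 of 14 in the late CL caudal library. The study's diagnosis of that early RV biopsy was a granulomatous to pyogranulomatous dermatitis, and the pathologists could not identify neoplastic cells in it with certainty. The difference between genes in gene-dense regions (27 or more coding genes within 500 kb) and in gene-sparse regions (8 or fewer) also varied, from -1.78 and -1.43 log2 units in the CL caudal libraries before treatment and late to 1.02 in the late BM library, relative to the mean of all libraries. The comparison of RV with the mammary tumors and the correlations are also given without the early RV library.

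Levels of each gene are listed for a tumor in the order before, early and late, and for RV the injection site precedes the adjacent site. ACTA2, smooth muscle α-actin, lies at chr26:38990553-39005038 of UU_Cfam_GSD_1.0, the assembly known as CanFam4. It was at 9.53, 29.4, 10.6 and 7.80 CPM in RV. It was at 41.7, 264.0 and 71.0 CPM in CL caudal, 116, 78.2 and 61.3 CPM in CL cranial, and 242.6, 407.9 and 210.9 CPM in BM. All 4 RV libraries were below all 9 mammary libraries, BM was highest at each time point, and the early library was the highest of its tumor in RV, CL caudal and BM but not in CL cranial.

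TAGLN (transgelin, an actin-binding protein of smooth muscle, at chr5:16417555-16422762) was at 194.4, 113.8, 229.0 and 156.8 CPM in RV. In the mammary tumors it was at 331, 381 and 528 CPM in CL cranial, 439, 1387 and 570.0 CPM in CL caudal, and 676, 1346 and 763 CPM in BM. The RV and mammary libraries again did not overlap, although the highest RV library and the lowest mammary library, at 229.0 and 331 CPM, lay close together.

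MYH11, the heavy chain of smooth muscle myosin, lies at chr6:28303247-28418936. Its span overlaps NDE1, which held 94 to 4296 counts per library, and reads could be shared if the counting did not use strand. It was at 5.40, 19.8, 4.82 and 4.66 CPM in RV, and at 631, 219 and 42.1 CPM in CL cranial, 43.2, 485 and 51.3 CPM in CL caudal, and 409, 356 and 12.8 CPM in BM. The gene ran over a range of 4.66 to 631 CPM, and the early RV library lay above the late BM library, so the tumors overlapped in 1 pair of libraries. The 5 late libraries, at 4.66 to 51.3 CPM, reached less high than the 4 libraries before treatment, at 5.40 to 631 CPM.

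CNN1, calponin 1, which binds actin and tropomyosin in smooth muscle, lies at chr20:50228604-50235177. It was at 0.733, 3.48, 1.49 and 0.544 CPM in RV, with 11, 62, 22 and 9 counts behind these values. It was at 55.1, 20.0 and 17.8 CPM in CL cranial, 6.46, 121 and 15.6 CPM in CL caudal, and 33.0, 65.6 and 10.1 CPM in BM. RV was below all mammary libraries, and the early CL caudal library held the highest value, as it did for TAGLN.

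**Figure D1:**
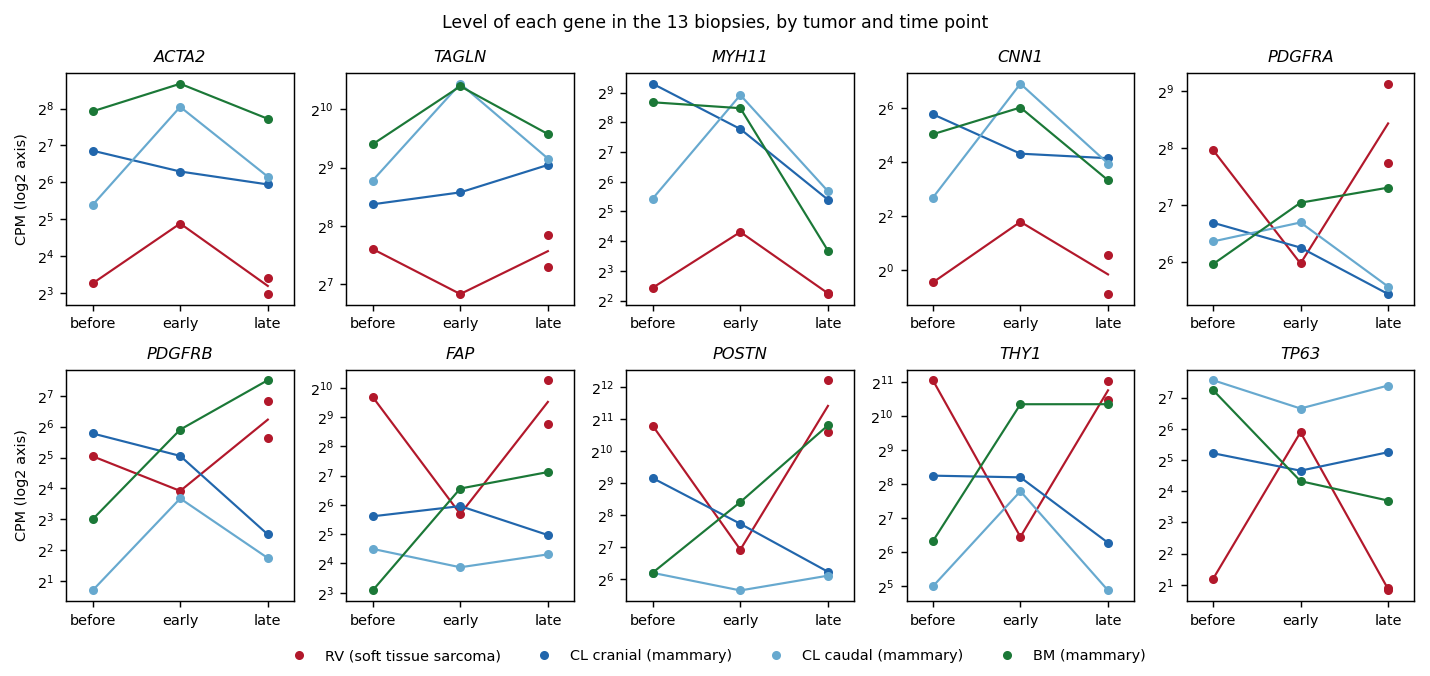
Level of each of the 10 genes in the 13 biopsies. The horizontal axis gives the time point and the vertical axis CPM on a log2 scale; each point is 1 library, colored by tumor, and lines join the time points of a tumor (through the mean log2 level of the 2 late RV sites). RV lies below the mammary tumors for ACTA2, TAGLN and CNN1, and in the panels for FAP, POSTN, THY1 and TP63 the early RV library leaves the level of the other 3 RV libraries.

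Among the fibroblast genes, PDGFRA (at chr13:47418193-47464247) encodes the α receptor for platelet-derived growth factor. It was at 250.0, 62.6, 212.5 and 558.8 CPM in RV, and at 103, 76.0 and 43.2 CPM in CL cranial, 81.9, 103 and 47.3 CPM in CL caudal, and 62.1, 131 and 158 CPM in BM. The early RV library lay within the mammary range, while the other 3 RV libraries were above it.

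PDGFRB, the β receptor carried by pericytes and fibroblasts (chr4:59841270-59877207), was at 32.9, 15.1, 49.6 and 113.3 CPM in RV. It was at 55.0, 33.2 and 5.68 CPM in CL cranial, 1.61, 12.8 and 3.34 CPM in CL caudal, and 7.97, 59.9 and 181.9 CPM in BM. Counts were 27 and 49 in CL caudal before and late, and 65 in CL cranial late. The RV levels lay within the mammary range, CL caudal was lowest at each time point, and the order of the BM libraries was before, early, late.

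FAP, a surface protease of activated fibroblasts (chr36:7874009-7946310), was at 827.5, 51.6, 439.0 and 1231 CPM in RV. It was at 48.9, 62.3 and 31.4 CPM in CL cranial, 22.6, 14.6 and 19.9 CPM in CL caudal, and 8.44, 94.4 and 139.5 CPM in BM. Of the 4 RV libraries, 3 were thus above every mammary library, and the early RV library was in the mammary range.

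POSTN, the matrix protein periostin (chr25:3231130-3272726), was at 1773, 121.5, 1562 and 4764 CPM in RV, and at 571, 212.5 and 75.2 CPM in CL cranial, 73.5, 50.2 and 69.2 CPM in CL caudal, and 73.8, 340.6 and 1791 CPM in BM. The late BM library lay among the RV libraries. POSTN overlaps the long noncoding RNA LOC119865893, which held 21 to 2401 counts per library and could share reads with it. THY1, the surface glycoprotein CD90 (chr5:14529873-14535084), was at 2118, 87.1, 1417 and 2090 CPM in RV, and at 303, 293 and 77.2 CPM in CL cranial, 31.8, 221 and 29.3 CPM in CL caudal, and 79.7, 1297 and 1298 CPM in BM. It overlaps the noncoding LOC111095807, with 27 to 1969 counts per library. The early and late BM libraries came near the RV level for THY1.

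TP63, which encodes the p63 factor of basal epithelial and myoepithelial nuclei (chr34:21951749-22170136), was at 2.27, 59.3, 1.76 and 1.88 CPM in RV. It was at 37.2, 25.2 and 38.0 CPM in CL cranial, 188.3, 100.3 and 167.1 CPM in CL caudal, and 151.6, 20.0 and 12.98 CPM in BM. CL caudal, the complex carcinoma, had the highest level at each time point, and the early RV library lay inside the mammary range while the other RV libraries, with 26 to 34 counts, were below it. By tumor, TP63 averaged 152 ± 45.9 CPM in CL caudal, 61.5 ± 78.1 CPM in BM and 33.5 ± 7.16 CPM in CL cranial. The SD is over the before, early and late libraries (n = 3 each). The CL caudal and CL cranial libraries did not overlap, and the share of all genes that did the same was not computed. The means of BM and CL cranial differed by less than the SD of BM. That SD holds the change of BM from 151.6 to 12.98 CPM over time and is not a spread of replicates.

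Whether the sarcoma differed from the mammary tumors was tested first. The 4 contractile genes were lower in RV and FAP was higher, by the quasi-likelihood test of edgeR with p-values adjusted over all 20118 genes (Benjamini-Hochberg). Of all genes, 3.06% were called lower and 4.15% higher in the same comparison, and the median log2 fold change of all genes was 0.13. ACTA2 was lower by a log2 fold change of -3.32 (SE 0.45, adjusted p = 0.00238). CNN1 was at -4.34 (SE 0.78, adjusted p = 0.0093), MYH11 at -3.93 (SE 0.87, adjusted p = 0.0225) and TAGLN at -1.86 (SE 0.43, adjusted p = 0.0245). FAP was at 3.74 (SE 0.80, adjusted p = 0.0196).

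The remaining fibroblast genes had positive estimates that did not pass the threshold. They were 2.82 for THY1 (SE 1.004, adjusted p = 0.119), 2.52 for POSTN (SE 0.87, adjusted p = 0.110), 1.52 for PDGFRA (SE 0.55, adjusted p = 0.124) and 0.87 for PDGFRB (SE 0.86, adjusted p = 0.596). TP63 was at -2.72 (SE 1.25, adjusted p = 0.220). Of the 4 contractile genes, ACTA2, TAGLN and CNN1 had all RV libraries below all mammary libraries, a pattern held by 1.59% of the genes tested, and no member had all RV libraries above them, against 1.98% of all genes. The fold between the medians of the mammary and RV libraries was 11.5 for ACTA2, 3.25 for TAGLN, 18.0 for CNN1 and 42.9 for MYH11.

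The calls for ACTA2 and CNN1 were kept in each of 21 alternative fits, with adjusted p-values up to 0.0222 and 0.0496. Those for TAGLN, MYH11 and FAP were lost when single libraries were left out. TAGLN was lost without the RV library before treatment (adjusted p = 0.0657), either late RV site (0.0761 without injection, 0.095 without adjacent), or CL cranial before (0.0508) or late (0.0613). MYH11 was lost without RV before (0.0859), either late RV site (0.0668 and 0.0662) or CL caudal late (0.0638). FAP was lost without RV before (0.160), the adjacent late RV site (0.071) or CL caudal late (0.0525). With a whole mammary tumor left out, an alternative chosen after seeing the data, TAGLN was lost without each of the 3 (0.055 to 0.0605) and FAP without CL caudal (0.113) or CL cranial (0.0715).

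**Figure D2:**
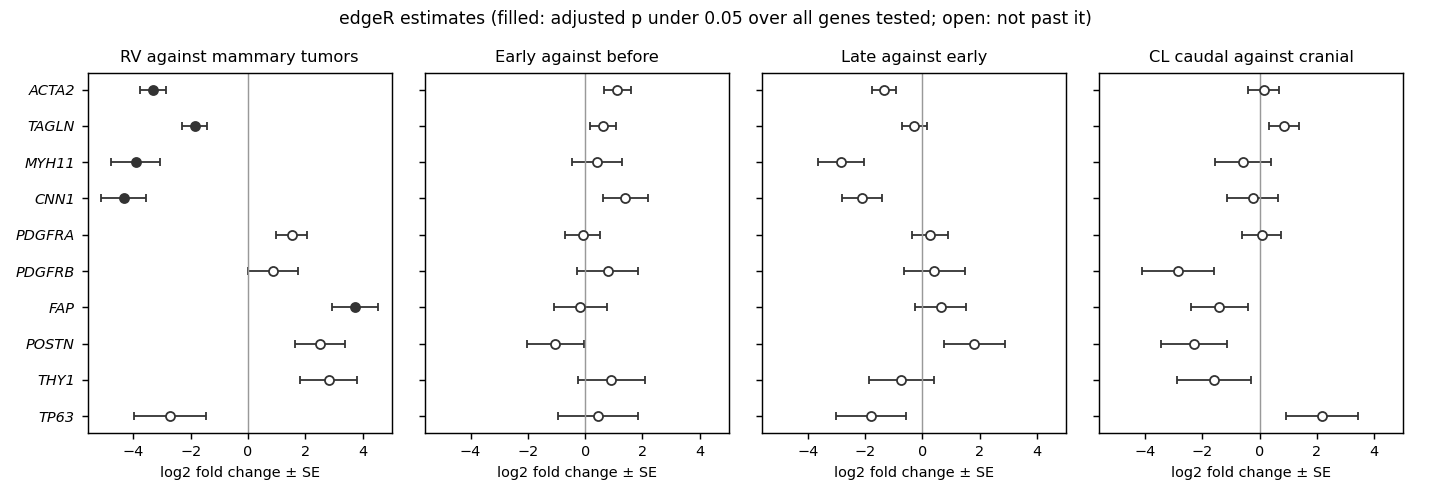
Log2 fold change of the 10 genes in 4 comparisons, as points with bars of 1 SE from edgeR; filled points have an adjusted p under 0.05 over all genes tested. The contractile genes lie left of 0 and FAP right of 0 for RV against the mammary tumors, and no point is filled in the comparisons of early with before, late with early, or CL caudal with CL cranial.

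Leaving out the early RV library, in which epidermal and leukocyte genes were high, changed which members were called. PDGFRA had a log2 fold change of 2.07 (adjusted p = 0.00887), POSTN of 3.13 (adjusted p = 0.0183) and THY1 of 3.505 (adjusted p = 0.00633). TP63 was at -5.13 (adjusted p = 0.000667). With FAP, 4 members were then called higher and 5 lower, where edgeR called 10.2% of all genes higher and 11.6% lower. PDGFRB was not called in either fit. In these 12 libraries MYH11 and TP63 also had all RV libraries below the mammary libraries, making 5 members, a pattern of 8.94% of all genes. PDGFRA, FAP and THY1 had all RV libraries above them, a pattern of 8.36% of all genes. DESeq2, run on all 13 libraries, also called PDGFRA, FAP, POSTN and THY1 higher and TP63 and the 4 contractile genes lower, while it called 9.93% of all genes higher and 8.68% lower.

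Genes that work with the members were read beside them. Of 18 other contractile genes, 4 were called lower in RV and none higher, and the list's median log2 fold change was -1.27. The called genes were enteric smooth muscle actin ACTG2 at -4.23 (adjusted p = 0.00419), myosin light chain kinase MYLK at -4.16 (adjusted p = 0.00231), β-tropomyosin TPM2 at -2.97 (adjusted p = 0.00447) and the myosin light chain MYL9 at -2.26 (adjusted p = 0.0191). ACTG2 was at 4.60 to 13.6 CPM in RV and 19.6 to 423.4 CPM in the mammary tumors, and MYLK at 9.22 to 36.7 against 76.3 to 690.2 CPM, so neither overlapped. Desmin (DES), the intermediate filament of muscle, was at no more than 3.82 CPM in RV and reached 18.6 CPM in the early BM library. The most abundant of the list, CALD1, TPM1 and CSRP1, which bind or regulate actin filaments, were at 210.3 to 1358, 96.7 to 632 and 119 to 400 CPM in RV, and overlapped the mammary tumors. DESeq2 called 8 lower and none higher.

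Among 7 genes for SRF and its partners, 3 were called lower. SRF itself was at -1.35 (adjusted p = 0.0346), its coactivator MRTFA at -1.60 (adjusted p = 0.047) and the SRF-responsive cofactor FHL2 at -3.28 (adjusted p = 0.0243). Of 10 pericyte genes only NOTCH3, the Notch receptor of mural cells, was called, at -3.16 (adjusted p = 0.0269), and the median of the list was -0.18. RGS5, which marks pericytes, was at 55.6, 7.24, 38.0 and 83.45 CPM in RV and 20.9 to 72.1 CPM in the mammary tumors. The groups therefore overlapped for RGS5.

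Of the 4 ligands of the PDGF receptors, 2 were called lower in RV, PDGFA at -3.09 (adjusted p = 0.0243) and PDGFC at -2.58 (adjusted p = 0.0198), and the list's median was -1.93. PDGFD, at 30.4 to 57.5 against 40.9 to 150.0 CPM, was not called. PDGFA was at 0.610 to 3.31 CPM in RV and 1.40 to 41.1 CPM in the mammary tumors. PDGFC, at 12.3 to 60.8 against 62.3 to 386.9 CPM, did not overlap. Of the 14 TGF-β pathway genes none was called by edgeR on all 13 libraries, 5 had an unadjusted p under 0.05 (22.9% of all genes did), and DESeq2 called 2 higher and 2 lower. Without the early RV library, edgeR called 3 of the 14 higher and 1 lower, where it called 10.2% of all genes higher and 11.6% lower.

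Of 18 other genes of activated fibroblasts, INHBA (the activin A subunit) was called higher at 2.07 (adjusted p = 0.0319) and the mucin-type glycoprotein PDPN at 2.73 (adjusted p = 0.0145), whereas WNT5A was called lower at -2.53 (adjusted p = 0.0254). LRRC15, a marker of fibroblasts exposed to TGF-β, was at 15.8, 1.24, 8.28 and 13.1 CPM in RV, at 5.71 CPM in the late BM library and at 0.285 CPM or less in the other mammary libraries, 3 of which held no count. The most abundant of the list were FN1, SPARC and VIM. SPARC was at 14050, 606.9, 9561 and 13880 CPM in RV and 15380 CPM in the late BM library, and its lowest mammary level was 809 CPM. Of 14 genes of resting fibroblasts, the progenitor marker CD34 was called higher at 3.91 (adjusted p = 0.0242) and complement factor D (CFD) at 2.60 (adjusted p = 0.0232). Decorin (DCN) was at 7053, 425.8, 3911 and 8848 CPM in RV and 63.5 to 2963 CPM in the mammary tumors, the early RV library again lying inside the mammary range.

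Of 18 basal and myoepithelial genes, 7 were called lower in RV (KRT15, OXTR, ITGB4, ITGA6, LAMA3, JAG2 and EGFR), with KRT15 at -5.49 (adjusted p = 0.00964) and the oxytocin receptor OXTR, which myoepithelial cells use to contract, at -3.70 (adjusted p = 0.0211). Of 14 luminal genes, 12 were called lower, with a list median of -4.15, among them EPCAM at -4.87 (adjusted p = 0.0258), KRT8 at -4.77 (adjusted p = 0.0103) and CDH1 at -3.83 (adjusted p = 0.0122). The other 9 called were KRT18, KRT19, CLDN3, CLDN4, CLDN7, ELF3, GATA3, FOXA1 and PROM1. KRT7, a keratin of simple epithelia, was not called by edgeR on all 13 libraries. It stood at 957, 18.7, 804 and 381.6 CPM in RV and 20.3 to 414.0 CPM in the mammary tumors. DESeq2 on the same libraries called 13 luminal genes lower and 1 higher. Of 12 epidermal genes tested, CASP14 was called higher at 3.69 (adjusted p = 0.0247), with 40.0 CPM in the early RV library and 3.57 CPM or less in the other RV libraries. No skeletal muscle, endothelial or leukocyte gene was called by edgeR, where 1 of 10, 0 of 11 and 0 of 12 had an unadjusted p under 0.05. DESeq2 called 1 skeletal muscle gene lower and none of the other 2 lists. Without the early RV library, edgeR called 10.2% of all genes higher and 11.6% lower. Of the 18 other activated fibroblast genes it called 7 higher and 2 lower, and of the 14 resting ones 7 higher and 1 lower. Of the 18 basal genes 14 were called lower and none higher. Of the 14 luminal genes 13 were called lower and 1, KRT7, higher, at 3.14 (adjusted p = 0.00104). Of the 18 other contractile genes 5 were called lower and 1 higher. The median of the epidermal list turned from 1.79 to -0.74 in that fit. CASP14 was still called there, at 2.99 (adjusted p = 0.0487).

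The other most abundant genes of these lists were not called by edgeR on all 13 libraries and mostly overlapped between RV and the mammary tumors. The SRF partner MRTFB was at 57.9 to 70.0 CPM in RV, inside the mammary range of 38.0 to 110.6 CPM, and CSRP2 at 11.4 to 80.7 CPM lay inside its range of 11.3 to 194.6 CPM. The pericyte proteoglycan CSPG4 was at 4.04 to 19.5 CPM against 6.29 to 199.9 CPM, and NDUFA4L2 at 12.4 to 73.4 against 2.95 to 439.3 CPM. Lumican (LUM), a collagen-binding proteoglycan like decorin, was at 102.4 to 400.1 CPM in RV and reached 5471 CPM in the late BM library, and the actin-severing protein gelsolin (GSN) was at 112.3 to 1230.0 against 93.5 to 4470.0 CPM. The TGF-β receptors TGFBR2 and TGFBR3 were lowest of the RV libraries in the early one, at 103.2 and 58.1 CPM against at least 287.9 and 431.9 CPM in the other 3. The latent TGF-β binding protein LTBP1 was highest there, at 134.5 CPM, and DST, a cytolinker of basal cells, lowest, at 161.0 CPM. The early RV library was also the highest of the RV libraries for the epidermal genes KRT10, SBSN and SPINK5 (569.4, 270.3 and 186.7 CPM), the leukocyte genes PTPRC, LAPTM5 and CSF1R (354.1, 359.9 and 120.8 CPM) and the skeletal muscle genes NEB and RYR1 (24.6 and 6.79 CPM), but not for the skeletal actin ACTA1 (0.954 CPM). The endothelial genes PECAM1, VWF and EMCN were highest in the early BM library, at 577.9, 653.6 and 91.8 CPM. Without the early RV library, edgeR called LUM lower in RV, at -2.75 (adjusted p = 0.0499), and LTBP1 lower, at -1.93 (adjusted p = 0.00299). TGFBR2 was called higher in that fit, at 1.26 (adjusted p = 0.0421).

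**Figure D3:**
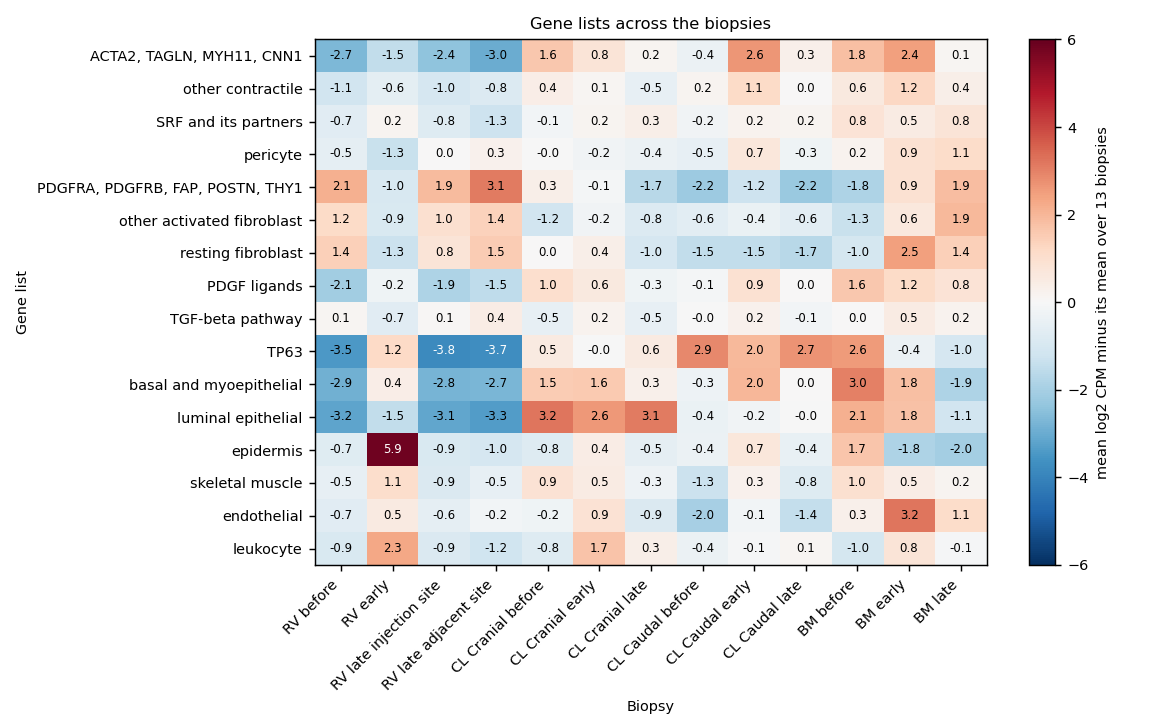
Mean log2 CPM of each gene list per biopsy, minus the list's mean over the 13 biopsies (color and printed value, log2 units). The list of PDGFRA, PDGFRB, FAP, POSTN and THY1 stands at 2.15, 1.88 and 3.13 in the RV libraries before treatment and late, at -0.97 in the early RV library, where the epidermal list reaches 5.86, and goes from -1.84 to 1.86 between the first and last BM biopsies.

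In bulk biopsies, fewer cells of a type cannot be told apart from less RNA per cell. With that limit, it was asked whether the members changed after treatment. No member was called in early against before, late against before or late against early by edgeR with tumor as a block. At an unadjusted p under 0.05 the numbers were 1, 1 and 3 of 10 members, against 2184, 805 and 5355 of 20118 genes. DESeq2 called no member in early or late against before. Of all genes, edgeR called 0.00497% higher and 0% lower early against before, 0% in either direction late against before, and 0% higher and 0.00994% lower late against early.

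Early against before, ACTA2 had the smallest p-value of the members, with a log2 fold change of 1.12 (SE 0.46, adjusted p = 0.424 by edgeR), and the median of all genes was 0.25. It was higher in 3 of 4 tumors: by 2.66 in CL caudal, 1.62 in RV and 0.75 in BM, with -0.56 in CL cranial (differences of log2 CPM, single libraries without a replicate check). CNN1 had the same order, with 4.20 in CL caudal, 2.11 in RV, 0.99 in BM and -1.46 in CL cranial, and an estimate of 1.40 (SE 0.78, adjusted p = 0.523). TAGLN averaged 410 ± 203 CPM before, 807 ± 656 CPM early and 449 ± 252 CPM late (SD, n = 4, 4 and 5), and the means were within these spreads. The spreads lie between tumors, leave out the pairing and count both late RV sites. Within tumors TAGLN differed early by 1.66 in CL caudal, 0.995 in BM, 0.204 in CL cranial and -0.772 in RV. No member was higher or lower in all 4 tumors, where 10.8% of all genes were higher and 7.85% lower in all 4.

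Changes were large in the early CL caudal library. MYH11 was 11.2-fold, CNN1 18.4-fold, THY1 6.93-fold and PDGFRB 7.50-fold higher there than before treatment. Gene-dense genes also had a median change of 1.3 log2 units in that pair of libraries, against -0.57 for gene-sparse genes. CNN1 and THY1 lie in gene-dense regions, and relative to the median of such genes they differed by 2.91 and 1.5. MYH11 and ACTA2 lie in regions of middle density, where the median change was 0.06, and relative to it they differed by 3.43 and 2.60. The part of gene density in these changes was not tested further. PDGFRA, FAP, POSTN and TP63 lie in gene-sparse regions and differed by -0.91 to 0.33 in the same pair, without subtraction of a median. Relative to the median of gene-sparse genes they differed by 0.908, -0.0513, 0.0253 and -0.334.

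In the early RV biopsy the fibroblast genes had lower levels. THY1 was 24.3-fold, FAP 16.0-fold, POSTN 14.6-fold and PDGFRA 3.99-fold lower than before treatment, and TP63 was 25.1-fold higher. The basal keratins KRT5 and KRT14 went from 15.4 to 418 CPM and from 5.13 to 602 CPM in the same pair of libraries, with the epidermal and leukocyte genes described above; their part in the fall of the fibroblast genes was not tested. In the mammary tumors THY1 differed by -0.05 to 4.02 and TP63 by -2.92 to -0.56. A fit with a term for RV put the early change of TP63 in RV above that in the mammary tumors by 6.38 (SE 1.39, adjusted p = 0.0913), and for THY1 and FAP the same difference was -6.37 (SE 2.08, adjusted p = 0.118) and -4.58 (SE 1.69, adjusted p = 0.144). None of the 3 passed the threshold, and no gene did by edgeR in either direction (0% higher and 0% lower), while 4908 of 20118 genes and 3 members had an unadjusted p under 0.05. DESeq2 was not run on this term.

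Late against early, 3 of the 4 contractile genes had lower levels in all 4 tumors. MYH11 differed by -4.79 in BM, -3.24 in CL caudal, -2.38 in CL cranial and -2.04 in RV. ACTA2 differed by -0.35 in CL cranial and -0.95 to -1.89 in the other tumors, and CNN1 by -0.17 in CL cranial and -1.82 to -2.95 in the others. Genes lower in all 4 tumors made up 17.4% of all genes and those higher in all 4 made up 12.9%, and no member was higher in all 4. In CL cranial, gene-dense genes, of which CNN1 is one, had a median difference of -0.64, so that CNN1 stood at 0.47 relative to it.

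The edgeR estimates were -2.84 for MYH11 (SE 0.81, adjusted p = 0.0737), -1.35 for ACTA2 (SE 0.42, adjusted p = 0.0862) and -2.11 for CNN1 (SE 0.71, adjusted p = 0.10), beside a median of -0.35 over all genes. DESeq2 called the same 3 genes, with adjusted p-values of 0.00216, 0.0173 and 0.0154, and called 16.9% of all genes lower. TAGLN was at -0.29 (SE 0.44, adjusted p = 0.702) and was lower in 2 of 4 tumors. The difference between TAGLN and the other contractile genes was not tested. Without tumor RV, edgeR put MYH11 at -3.43 (adjusted p = 0.275), ACTA2 at -1.20 (adjusted p = 0.352) and CNN1 at -2.30 (adjusted p = 0.293). Without the tumor block the adjusted p of ACTA2 was 0.419 by edgeR.

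Several other lists had negative medians late against early. They were -3.64 for the 12 epidermal genes, -2.81 for the 18 basal and myoepithelial genes, -0.93 for 18 other contractile genes, -1.54 for the 11 endothelial genes and -1.54 for the 12 leukocyte genes, and 5, 13, 3, 7 and 5 of these had an unadjusted p under 0.05 (26.6% of all genes did). None was called by edgeR. DESeq2 called 9, 12, 3, 7 and 7 lower. Without tumor RV the medians were -0.85, -1.95, -0.85, -1.78 and -0.69, and that of the 4 contractile members was -1.75 against -1.73 with it. Myocardin (MYOCD), the smooth muscle partner of SRF, had an estimate of -4.17 (SE 1.03, adjusted p = 0.0636) and was at 12.5 CPM in the early RV library and at most 2.86 CPM in all others.

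Early against before, the endothelial and leukocyte lists had medians of 1.93 and 1.99, with 9 of 11 and 10 of 12 genes at an unadjusted p under 0.05 against 10.9% of all genes. The 4 contractile members had a median of 0.87, and 1 of them reached that p. The part of vessels or leukocytes in the contractile level was not tested. The early BM library had the highest endothelial level, at 1917 CPM summed against 79.1 to 413.3 CPM in the other 12 libraries, and DES was also highest there.

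Late against before, MYH11 had the smallest p-value of the members, at -2.43 (SE 0.91, adjusted p = 0.974 by edgeR). Its level was 14.9-fold lower in CL cranial and 31.7-fold lower in BM, and the differences were 0.25 in CL caudal and -0.19 in RV. No member moved one way in all 4 tumors, where 7.13% of all genes were higher and 8.04% lower in all 4. The 5 fibroblast members had a median of 0.47, and without BM the estimates of FAP, POSTN and THY1 turned to -0.06, -0.09 and -0.63. The 18 basal and myoepithelial genes had a median of -1.57, and 5 of them had an unadjusted p under 0.05.

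In BM the fibroblast genes and the epithelial genes differed in opposite directions between the first and last biopsies. From before to late, POSTN was 24.2-fold, PDGFRB 22.6-fold, FAP 16.3-fold, THY1 16.3-fold and PDGFRA 2.54-fold higher, while MYH11 was 31.7-fold and TP63 11.6-fold lower. FAP, THY1 and TP63 made most of the change by the early biopsy, with 11.1-fold and 16.3-fold higher and 7.55-fold lower levels, whereas MYH11 was still at 356 CPM then. ACTA2 and TAGLN ended near where they began, at 210.9 against 242.6 CPM and 763 against 676 CPM. The keratins KRT5, KRT14 and KRT8 went from 1746 to 42.0 CPM, 1647 to 19.8 CPM and 930 to 65.6 CPM, the summed basal list from 9965 to 312 CPM and the summed luminal list from 3609 to 255.3 CPM. These values rest on 1 library per time point and have no replicate check. The study's histology described the early BM mass as rich in collagen, with neoplastic cells in small regions only. It found malignant mesenchymal features in the center of the late mass. The part of these tissue differences in the levels was not tested.

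CL cranial went in the other direction for the fibroblast members. Between before and late, PDGFRB was 9.53-fold, POSTN 7.58-fold and THY1 3.92-fold lower, and PDGFRA and FAP were 2.38-fold and 1.56-fold lower, so all 5 were lower there and all 5 were higher in BM. Whether the tumors differed in this was not tested, since each had 1 library per time point. In CL caudal the 5 genes differed by -0.79 to 1.01 log2 units.

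The late RV biopsies gave the only 2 libraries of 1 tumor at 1 time. All 5 fibroblast genes were higher at the site adjacent to the injection than at the injection site, by 3.05-fold for POSTN, 2.81-fold for FAP, 2.63-fold for PDGFRA, 2.29-fold for PDGFRB and 1.48-fold for THY1. The contractile genes were at ratios of 0.365 (CNN1) to 0.967 (MYH11), and TP63 at 1.06. The difference had a median of -0.01 and an SD of 0.80 log2 units over all genes, and the members ranged from -1.31 for CNN1 to 1.61 for POSTN. A test of the site was not possible with 1 library each.

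The caudal and cranial tumors of dog CL were compared with time as a covariate, and no member was called, where 0.0994% of all genes were called higher and 0.0348% lower in the caudal tumor. Of the members, 1 had an unadjusted p under 0.05, and DESeq2 called none. PDGFRB was at -2.86 (SE 1.26, adjusted p = 0.330 by edgeR), POSTN at -2.28 (SE 1.15, adjusted p = 0.393) and TP63 at 2.18 (SE 1.24, adjusted p = 0.441). TP63 was higher in the caudal tumor at all 3 time points, at 100.3 to 188.3 CPM against 25.2 to 38.0 CPM. The share of all genes that kept 1 direction at all 3 was not computed. With only the 6 CL libraries in the fit, TP63 was called at 2.23 (adjusted p = 0.0143), where 2.54% of all genes were called higher. TP63 lies in a gene-sparse region, and such genes had a median difference between the CL tumors of 0.551 before, 0.0164 early and 0.195 late. Relative to that median TP63 was higher in the caudal tumor by 1.79, 1.97 and 1.94 log2 units.

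The contractile members, which myoepithelium expresses with TP63, had estimates of 0.85 for TAGLN, 0.14 for ACTA2, -0.24 for CNN1 and -0.58 for MYH11, with SEs of 0.52 to 0.99. Of the 14 luminal genes all had negative estimates, with a median of -3.18, and KRT18 was called at -5.79 (adjusted p = 0.0229). It was at 2.09 to 14.4 CPM in the caudal and 178.4 to 505 CPM in the cranial tumor. The 18 basal genes had a median of -0.37, and none was called by edgeR or DESeq2.

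Across the 13 libraries the contractile genes correlated with each other and the fibroblast genes with each other. The correlations are a description over libraries that share tumors, hosts and scaling. Pearson's r of log2 CPM was 0.93 for ACTA2 with CNN1, 0.93 for MYH11 with CNN1 and 0.87 for ACTA2 with TAGLN. After subtraction of each tumor's mean it was 0.95, 0.84 and 0.40. Within the fibroblast set, r was 0.93 for FAP with POSTN and 0.69 for FAP with PDGFRB. TP63 was opposite to FAP, with r of -0.96 over libraries and -0.92 within tumors, and opposite to POSTN and THY1, with r of -0.91 and -0.90. Its r with the contractile genes was 0.47 to 0.69 over libraries. Within tumors it was 0.31 to 0.41 with ACTA2, MYH11 and CNN1 and -0.53 with TAGLN. Without the early RV library (n = 12) the r of TP63 within tumors was -0.86 with FAP, -0.69 with POSTN and -0.86 with THY1, and it was -0.26 with ACTA2, 0.32 with MYH11, -0.03 with CNN1 and -0.41 with TAGLN. In the same 12 libraries the r of ACTA2 with TAGLN within tumors was 0.79.

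**Figure D4:**
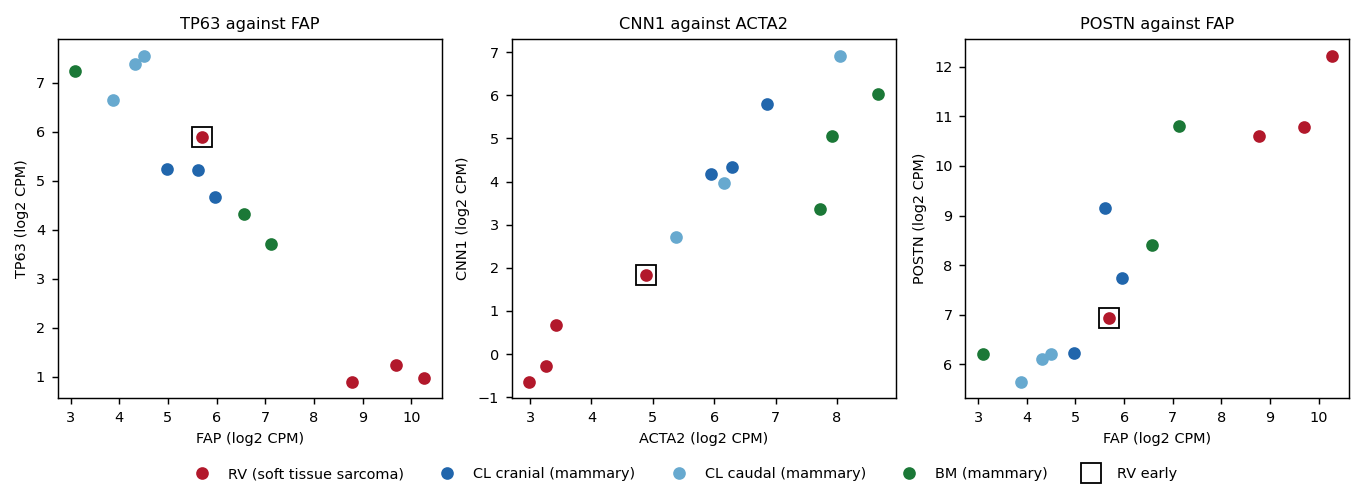
Pairs of members over the 13 libraries, each axis in log2 CPM, colored by tumor, with the early RV library boxed. TP63 falls as FAP rises (r = -0.96), CNN1 rises with ACTA2 (r = 0.93) and POSTN with FAP (r = 0.93), and the early RV library lies among the mammary libraries for FAP and TP63.

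The genes most like each member over the 13 libraries were named by the highest Pearson's r of log2 CPM among all genes tested. The 3 nearest to ACTA2 were LOC489707, PTPRU and UNC5B (r = 0.95 each), and those nearest to CNN1 were FJX1 (0.98), LOC489707 (0.97) and SPEG (0.97). MYH11 was nearest to MAT1A (0.98), FJX1 (0.97) and SYT8 (0.96), so that FJX1 and LOC489707 each served 2 contractile members. TAGLN was nearest to SLC5A6 (0.93), TPM2 (0.91) and HAPLN3 (0.89), of which TPM2 is a contractile gene.

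Of the fibroblast members, PDGFRB was nearest to the collagen gene COL6A3 (0.96), EML1 (0.95) and OLFML2B (0.94). FAP was nearest to ENPP2 (0.98), UBE2J1 (0.97) and SH3BP5 (0.97). POSTN was nearest to its overlapping LOC119865893 (0.97), and TBX15 (0.95) was also among its 3 nearest. PDGFRA was nearest to PLAA, EFCAB14 and VIRMA (0.95, 0.95 and 0.94), THY1 to S1PR2, CCDC124 and FAM89B (0.97, 0.97 and 0.96), and TP63 to SMURF2, LARP1B and KIF21A (0.98, 0.97 and 0.97). No member was among the 3 nearest to another.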

How the data were processed

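Strand-specific RNA-seq libraries of 13 biopsies were aligned to CanFam4.0 with Strand NGS by the authors, who deposited raw counts per gene symbol. TMM and edgeR were applied by the authors after that step. The counting rule and annotation are not given in the sources used here. Gene positions were taken from RefSeq for UU_Cfam_GSD_1.0. No sequence was used here, so promoters and proteins were not examined.

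The members and the gene lists were chosen with earlier results of these data known. Every member was named, with the 3 most abundant genes of each other list, those with an adjusted p under 0.05, and the 3 genes most correlated with each member. For POSTN, 1 of those 3 is not reported here. DES, MYOCD, LRRC15, KRT1, KRT14, S100A8 and S100A12 were added after their values were seen. Genes were filtered with filterByExpr (minimum count 10), scaled by TMM and tested in edgeR 4.0.16 (R 4.3.3) with tumor and time group as factors, glmQLFit with robust estimation and glmQLFTest, with adjustment over 20118 genes. The biological coefficient of variation was 0.672, with 7 residual degrees of freedom. The fit with a term for RV was added to compare its early change with the mammary tumors. Log2 CPM used a prior count of 2. Within-tumor folds were taken from log2 CPM. Gene density was the number of coding genes within 500 kb.

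Biopsies of the same tumor were paired by design. Their deviations from the group means correlated at a mean of 0.229 between before and early, 0.587 between before and late and 0.191 between early and late, against -0.0707, -0.199 and -0.0651 for other tumors. No pair of libraries agreed within sampling noise, the smallest chi-square being 44.5 per degree of freedom. The scripts were tested on simulated counts that held no differences between tumors. That test is not used here as a measure of power. The p-values measure the spread between biopsies. Counts limit the precision of CNN1 in RV most. Alternatives were DESeq2 1.42.0, its size factors, no filter, no tumor block, other sets of libraries and tumors or libraries left out. The gene lists and correlations without RV libraries were added after seeing the data. Python 3.11.15, pandas 2.3.3, numpy 2.4.6 and matplotlib 3.10.9 were used for summaries and figures.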

Additional observations from a re-analysis of the deposited data

Results flagged for a closer look

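The early RV library stood apart from the other 3 RV libraries for 3 members by Dixon's criterion. These were found among 50 groups of 4 to 9 libraries tested, where chance would give about 2.5. MYH11 was at 19.8 CPM there against 4.66 to 5.40 CPM, and TP63 at 59.3 CPM against 1.76 to 2.27 CPM. THY1 was at 87.1 CPM against 1417 to 2118 CPM.

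Directions in RV and in the mammary tumors were compared 20 times, for each member early and late against before. In 2 of these, both early, RV went opposite to all 3 mammary tumors. The share of all genes with this pattern was not computed, so the 2 are not read as more than other genes would give. TAGLN differed by -0.772 log2 units in RV and by 0.204 to 1.66 in the mammary tumors (adjusted p = 0.250 for the difference, edgeR). TP63 differed by 4.65 in RV and by -2.92 to -0.559 in the mammary tumors (adjusted p = 0.0913, edgeR).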

How the results depend on the processing

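Of the members' fold changes under all alternatives, 87 of 100 kept their direction and side of the threshold early against before, 93 of 100 late against before, 89 of 100 late against early, 100 of 110 for CL caudal against cranial and 178 of 210 for RV against the mammary tumors. The cause of the others was not tested. Without the block that pairs biopsies by tumor, 0 genes were called higher early against before and 0 lower late against early (1 and 2 with it), and the estimates turned to -0.0116 for MYH11, -0.42 for THY1 and -0.89 for TP63 early against before and to 1.05 for THY1 late against early. The pairing by tumor changed the call of no member. DESeq2 size factors gave 0 genes higher early against before. With only the 2 time groups compared, and with the late RV sites summed, 0 were called higher early against before and 0 lower late against early. In the former TP63 turned to -0.40 early against before, PDGFRA to -0.0286 late against before and PDGFRB to -0.0619 late against early, and in the latter TP63 turned to -0.0309 early against before. No filter gave 17 genes higher early against before, 143 higher and 938 lower late against early, and 76 higher and 29 lower in CL caudal, where 20 and 7 had been called. DESeq2 called 783 higher and 173 lower early against before, 2 and 5 late against before, 1403 and 3406 late against early (3 members lower), 592 and 828 in CL caudal, and 1997 and 1746 in RV (4 members higher), where edgeR had called 835 and 615. With only the CL libraries 510 genes were higher, 1 of them a member, and 558 lower. Without a time term 2 were lower in CL caudal, CNN1 turned to 0.62 there, and 3 members were higher in RV. Without the early libraries 4 members and 1864 genes were higher and 2356 lower in RV. With each tumor left out, 0 genes were called higher early against before and 0 lower late against early. The estimates then ran early against before from -0.34 to 1.33 for MYH11, -0.49 to 0.22 for PDGFRA, -0.15 to 1.70 for PDGFRB, -0.93 to 0.58 for FAP, -0.0878 to 1.77 for THY1 and -1.68 to 1.94 for TP63. Late against before they ran from -0.46 to 0.0633 for ACTA2, -0.25 to 0.58 for PDGFRA, -0.063 to 0.69 for FAP, -0.087 to 1.48 for POSTN and -0.63 to 0.84 for THY1. Late against early they ran from -0.58 to 0.12 for TAGLN, -0.47 to 0.75 for PDGFRA, -0.34 to 1.34 for PDGFRB, -1.37 to 0.24 for THY1 and -2.77 to 0.42 for TP63. With single CL libraries left out, 1 to 32 genes were higher and 0 to 9 lower in CL caudal, with -0.41 to 0.73 for ACTA2, -1.35 to 0.35 for MYH11, -1.11 to 0.70 for CNN1 and -0.45 to 0.53 for PDGFRA. For RV, leaving out single libraries or, chosen after seeing the data, a mammary tumor gave 0 to 4 members and 247 to 2080 genes higher, 2 to 5 members and 118 to 2355 genes lower, and -0.40 to 2.09 for PDGFRB; the lowest gene counts came without RV before and the highest without RV early. Depth limited CNN1 in RV, with 9 to 62 counts, and TP63, with 26 to 34 in 3 RV libraries. It also limited PDGFRB, with 27 and 49 counts in CL caudal before and late and 65 in CL cranial late.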
